A study of Mus musculus with 24 samples.

Results

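Brain endothelial cells were profiled at E13.5 from mouse embryos in which the TGF-beta receptor ALK5 was targeted in the neighbouring pericytes. All genes with an authors' group mean of at least 10 normalized counts in either group were taken, which gave 19401 of the 20523 genes listed, and 25471 genes are listed across the study's 3 comparisons. The 3 mutant samples had the genotype Pdgfrb-Cre, Alk5(flox/flox), Zs/+ and are marked GMH-IVH, while the 5 control samples had Pdgfrb-Cre, Alk5(flox/+), Zs/+ and are marked normal. The controls thus also carried Cre, the ZsGreen reporter and 1 floxed copy, and Cre was under control of Pdgfrb, a gene of mural and mesenchymal cells. Cells were sorted from brain by flow cytometry. The labels do not state whether embryos were pooled or litters differed, so each p-value covers the spread among the sequenced samples alone, which may be technical. For comparison, pericytes were taken at E13.5 and at E11.5 from 4 mutant and 4 control samples each.

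As background, endothelial cells line the vessels, and pericytes sit on their outer face within a shared basement membrane. In the developing brain the 2 cell types exchange PDGF, TGF-beta and angiopoietin signals while the blood-brain barrier forms, and immature vessels can bleed. ALK5, encoded by Tgfbr1, is the type I receptor that passes TGF-beta signals to SMAD2 and SMAD3. Haem released from red cells is broken down by haem oxygenase, and the freed iron is stored in ferritin.

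The authors give 2 group means per gene in normalized counts, with a ratio and a p, so no value per library, depth or overlap between groups can be given. Standard errors (SE) are those that the ratio and its p imply together. A gene is called changed where the authors' adjusted p lies under 0.05. Of the 19401 genes 18132 have an adjusted p, and 1269 at low levels have none. The 180 genes just inside the level limit, with a larger mean of 10 to 11, had a median log2 ratio of -0.02, and the 161 just outside it had one of 0.03.

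The sorted cells carried endothelial RNA at high levels in both groups. Pecam1, an adhesion molecule of endothelial junctions, averaged 17262 in mutants against 20006 in controls, by the authors' deposited table. Cdh5, the endothelial cadherin, had 15906 and 19917, and Cldn5, the main claudin of brain endothelium, had 28980 and 27554. These 3 genes did not pass the test. Of 25 endothelial markers 1 fell, the VEGF receptor Kdr, from 27972 to 20590 (log2 ratio -0.44, SE 0.13, adjusted p = 0.0209, or 0.468 re-centred on transcript length as described below), and the median over the list was -0.21. Tgfbr1 had a mean of 2849 in mutants and 3066 in controls (log2 ratio -0.11, SE 0.23, adjusted p = 0.859). That level is not a check of the labels, since Pdgfrb is not an endothelial gene and the tables do not resolve exons.

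The authors' deposited table called 1323 of 18132 genes, which is 7.30% of those tested. Higher in mutants were 926 genes (5.11%), and lower were 397 (2.19%). A change of at least 2-fold was reached by 201 of the higher and 46 of the lower genes, and the median log2 ratio of all tested genes was -0.01. The higher genes were led by haemoglobins, haem-handling genes, histones and ribosomal proteins, and the lower ones by Col15a1. The plot of ratio against level shows these groups. The count depends on how the spread is judged: with test statistics rescaled so that their median size matches a standard normal, 49 genes were called, 45 of them higher.

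**Figure D1:**
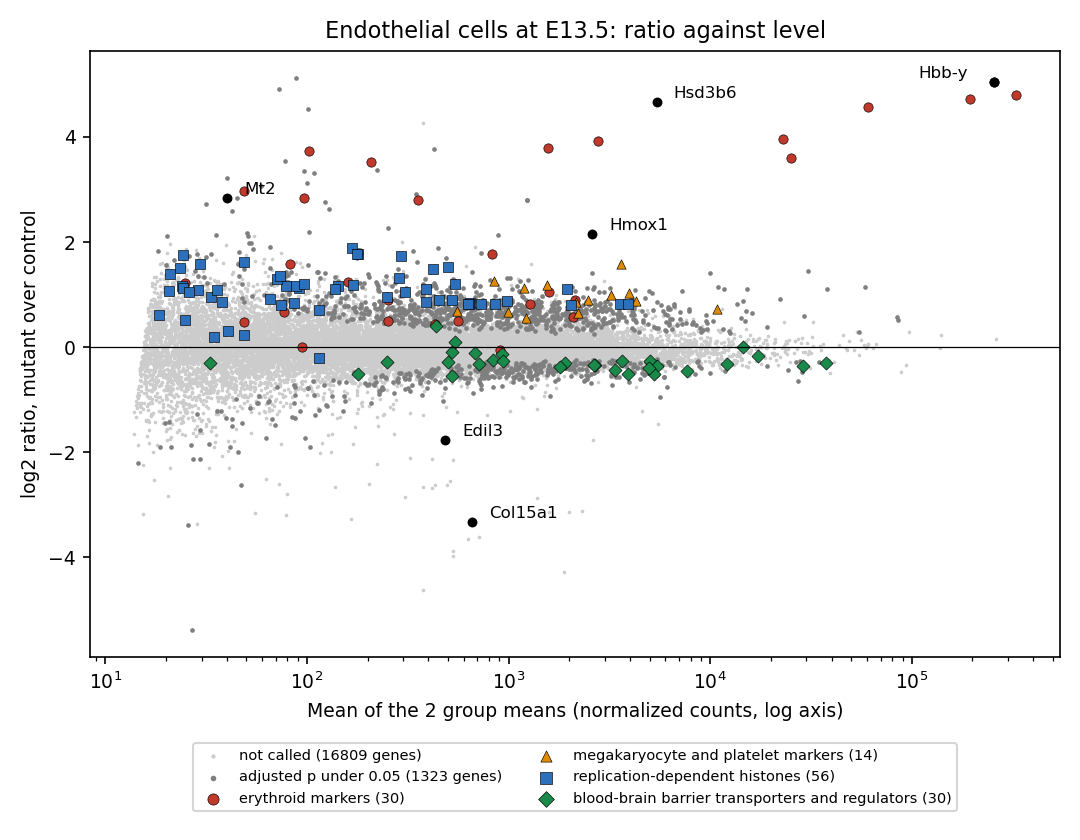
Log2 ratio of mutant over control (y) against the mean of both group means in normalized counts (x, log axis) for the 18132 tested genes. Coloured points are members of 4 gene lists and black points are single named genes. Globins lie at the upper right with Hbb-y at 5.04, Col15a1 lies lowest among the labelled genes at -3.32, and barrier genes lie mostly below 0.

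Red cell transcripts led the higher genes. The embryonic beta-like globin Hbb-y had a mean of 495119 in mutants and 15002 in controls, 33.0-fold higher (log2 ratio 5.04, SE 1.00, adjusted p = 6.99e-05). The alpha globin Hba-a1 had 632622 and 22783 (27.8-fold), and the embryonic alpha-like globin Hba-x had 116882 and 4917 (23.8-fold). The adult beta globin Hbb-bs had 46351 and 3800 (12.2-fold). Together 10 globin genes held 7.45% of the summed means in mutants and 0.302% in controls. Hba-a1 and Hba-a2, and Hbb-bs and Hbb-bt, are near-identical copies, so the split of reads within each pair is uncertain. Embryonic and adult globins were higher together.

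Genes of red cell precursors moved with the globins. Alas2, the first enzyme of haem synthesis in red cells, rose from 212 to 2932 (log2 ratio 3.79, SE 0.80). The membrane proteins Slc4a1 (89.3 to 624) and Rhd (14.3 to 189) also rose in the authors' deposited table. Klf1, a transcription factor of red cell precursors, had means of 225 and 95.0 and did not pass the test (adjusted p = 0.0538). Of 30 tested erythroid markers 16 rose and none fell, with a median log2 ratio of 1.68 beside -0.01 for all genes, and the summed level of the list was 1731380 in mutants and 72136 in controls. Of the 17 erythroid markers also tested in E13.5 pericytes none was called there, and their median was 0.10. Globin means were nonetheless higher in mutant pericytes, with 569 and 134 for Hba-a1 and 619 and 137 for Hbb-bs. Other markers were not, such as Bpgm with 517 in mutants and 556 in controls. Between the cell types 3 of 17 differed, all with the higher ratio in endothelial cells. In bulk RNA, more cells of a type and more RNA per cell cannot be told apart.

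A second group at the top was the Hsd3b family of steroid dehydrogenases, a list chosen after its values were seen. Hsd3b6 had a mean of 10451 in mutants and 410 in controls (log2 ratio 4.67, SE 0.93, adjusted p = 7.73e-05). Hsd3b2 (140 and 4.67), Hsd3b3 (193 and 8.28) and Hsd3b1 (197 and 19.7) rose as well. The control means of Hsd3b2 and Hsd3b3 lie under 10, so these genes passed the level limit only through the mutants, where they are high, and their calls add no support. The genes lie in 1 cluster on chromosome 3 and resemble each other, so reads may be shared between them.

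Promoters of these 2 groups were searched for AGATAA, a form of the site bound by GATA factors such as GATA1 of red cells, on both strands of the 250 bases before each start site in RefSeq's GRCm38.p6 table. It was found in at least 1 promoter of 11.4% of 27025 genes in the table and of 7.59% of 11149 tested genes with a promoter. Of the 16 erythroid markers that rose, 11 had a promoter there and 4 held the motif, and of the 4 Hsd3b genes that rose 3 held it. The Hsd3b genes resemble each other and were listed after their values were seen. Hsd3b2 and Hsd3b3 passed the level limit only through the mutants. The Hsd3b count is thus no support when set beside the share of all genes. The letters CCACACCC, searched in the same way as a KLF site, were found for 1 of the 11 erythroid and 0 of the 4 Hsd3b genes. They were found for 4.08% of tested genes with a promoter. A match is a description and not evidence of binding. The stretches around the matches are shown so that both groups can be compared, with the motif or its reverse complement TTATCT in capitals.
Hbb-bs (chr7:103828103-103828168, minus strand): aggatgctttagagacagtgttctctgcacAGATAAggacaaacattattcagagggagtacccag
Alas2 (chrX:150547301-150547366, plus strand): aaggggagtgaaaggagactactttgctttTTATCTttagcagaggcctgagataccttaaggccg
Rhd (chr4:134864463-134864528, plus strand): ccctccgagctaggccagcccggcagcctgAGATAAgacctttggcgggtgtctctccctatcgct
Epb42 (chr2:121037068-121037127, minus strand): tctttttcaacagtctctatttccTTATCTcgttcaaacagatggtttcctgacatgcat
Hsd3b6 (chr3:98814444-98814504, minus strand): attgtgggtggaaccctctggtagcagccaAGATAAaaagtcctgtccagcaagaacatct
Hsd3b3 (chr3:98763335-98763378, minus strand): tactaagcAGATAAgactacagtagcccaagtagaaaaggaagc
Hsd3b1 (chr3:98859893-98859958, minus strand): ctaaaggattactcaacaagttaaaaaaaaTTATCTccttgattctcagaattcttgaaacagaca

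Of 28 tested genes of haem breakdown and iron handling 5 rose and 3 fell, with a median of 0.07. The shares over all tested genes were 5.11% higher and 2.19% lower. Hmox1, haem oxygenase 1, had a mean of 4250 in mutants and 955 in controls, 4.45-fold higher (log2 ratio 2.15, SE 0.29, adjusted p = 1.73e-10). Blvrb, a biliverdin reductase, rose from 329 to 1438, and the haem transporter Slc48a1 rose from 677 to 1512. The ferritin chains Fth1 (16369 to 44539) and Ftl1 (36518 to 80406) rose by factors of 2.72 and 2.20, by the authors' deposited table. Tfrc, the transferrin receptor that brings iron into cells, fell from 3884 to 2857, and Flvcr2 and Steap3 fell with log2 ratios of -0.47 and -0.63. The iron exporter Slc40a1 did not pass the test (10755 and 13468, adjusted p = 0.118). The 3 falls were no longer called with ratios re-centred on transcript length, as described below. Erythroid RNA moved with these values, and its part in them was not tested.

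Of 34 tested targets of NRF2, a transcription factor of the oxidative stress response, 11 rose, none fell and 23 were not called, with a median of 0.41. The share of all tested genes that were higher was 5.11%. Erythroid and myeloid RNA moved with them (summed levels 24.0 and 1.60 times those of controls), and its part was not tested. The metal-binding metallothioneins Mt1 (190 to 705, log2 ratio 1.89, SE 0.43) and Mt2 (9.91 to 70.7, log2 ratio 2.83, SE 0.62) rose, where Mt2 passed the level limit only through its mutant mean. Gpx4, a peroxidase that protects membrane lipids, rose from 1258 to 2280. Ddit3, a factor of the stress response to unfolded protein, rose from 265 to 596, and Trib3, a target of it, rose from 147 to 522. Of 29 genes of the unfolded protein response 2 rose and 1 fell, the 2 being these. Gdf15, a stress-induced ligand, rose from 23.3 to 84.8, while 1 of 20 p53 targets was called in all. Since 7.30% of all tested genes were called, the counts of the unfolded protein and p53 lists lie near that share. Prdx1, an NRF2 target with a higher level, had means of 10786 and 8734 and was not called.

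The promoters of both metallothioneins hold the core of the metal response element, the site of the metal-sensing factor MTF1, and are shown for that reason. The letters searched were TGCACNC and TGCGCNC on both strands of the same 250 bases. Of tested genes with a promoter 33.5% hold 1 or more, so a match is common. Among the 10 NRF2 targets that rose and had a promoter, 4 held these letters. The antioxidant response letters TGACNNNGC, also searched, were held by 3 of the 10 and by 13.8% of tested genes with a promoter. Matches are in capitals, and the last in Mt2 is on the opposite strand.
Mt1 (chr8:94179036-94179088, plus strand): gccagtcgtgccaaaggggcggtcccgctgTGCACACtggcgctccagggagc
Mt2 (chr8:94172368-94172604, plus strand): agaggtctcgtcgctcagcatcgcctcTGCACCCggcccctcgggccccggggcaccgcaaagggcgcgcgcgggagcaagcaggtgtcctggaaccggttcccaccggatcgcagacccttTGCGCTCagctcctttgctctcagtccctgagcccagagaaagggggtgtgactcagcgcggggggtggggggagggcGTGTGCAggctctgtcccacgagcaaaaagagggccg

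Markers of other blood cells were partly higher. Among 14 tested megakaryocyte and platelet markers 6 rose, all 14 had positive log2 ratios, and the median was 0.88. Gp9, a subunit of the platelet receptor for von Willebrand factor, rose from 500 to 1192, Itga2b, the platelet integrin, from 1742 to 3234, and the platelet chemokine Pf4 from 1821 to 5418. Among 31 myeloid markers 4 rose, namely Aif1 (83.3 to 270), Tyrobp (676 to 1611), Fcer1g (1380 to 2904) and Pf4. Over all tested genes 5.11% were higher. Positive log2 ratios were found for 29 of the 31, with a median of 0.69. The summed level was 61421 in mutants and 38485 in controls. Other defining genes of macrophages had higher means in mutants but did not pass the test. Csf1r had means of 1587 and 1183 (adjusted p = 0.771), Ptprc 1998 and 1538, and Cx3cr1 4925 and 3840. C1qa had 1575 and 644 (adjusted p = 0.292), and Mrc1 1022 and 678. Of 12 markers of neutrophils and monocytes none was called by the authors' DESeq2 values, and 1 had an unadjusted p under 0.05. The 4 called genes have transcripts of 564 to 847 bases and Csf1r one of 4285 bases, and transcript length itself moved with the ratios, as described below.

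Genes of macrophages that handle lipid, a list chosen after its values were seen, had 7 of 16 members higher and a median of 1.12. Spp1, a secreted phosphoprotein, rose from 309 to 2146 (log2 ratio 2.80, SE 0.62), Lpl, lipoprotein lipase, from 328 to 1133, Gpnmb from 42.7 to 115 and Apoe, an apolipoprotein, from 15367 to 29042. Ctsd and Ctsb, proteases of the lysosome, rose with log2 ratios of 0.62 and 0.68, within a list of 26 lysosomal genes of which 4 rose. Myeloid RNA moved with these values, and its part in them was not tested. Of 32 interferon-response genes 5 rose, among them Ifitm1 (3411 to 6931). Irf1 rose from 313 to 530 as the 1 call among 21 genes of leukocyte adhesion and inflammation. For these lists the share over all tested genes was 5.11% higher. With ratios re-centred on transcript length none of the 5 interferon-response calls remained, while that of Irf1 did.

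**Figure D2:**
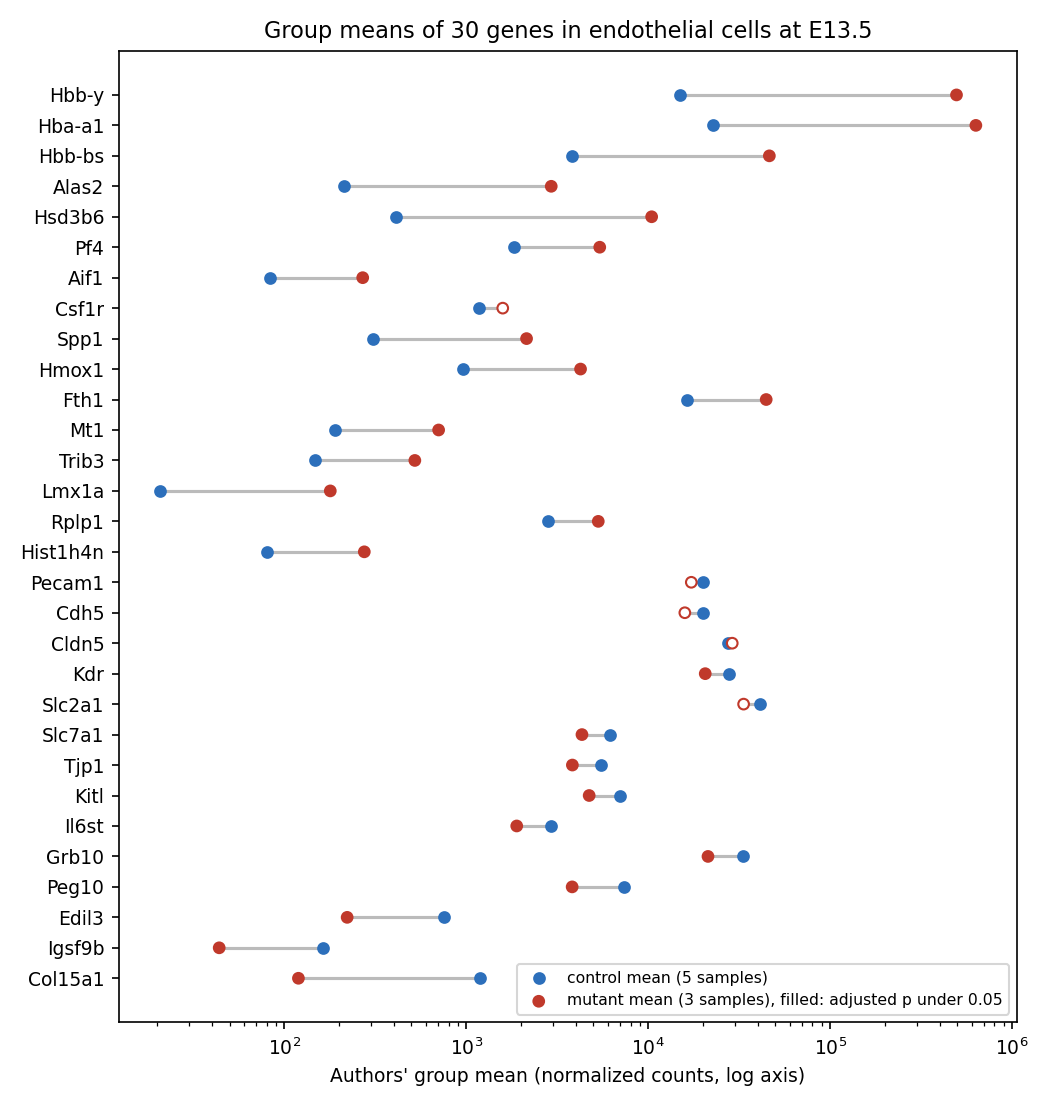
Authors' group means in normalized counts (x, log axis) for 30 named genes (y), with blue points for the 5 control samples, red points for the 3 mutant samples and filled red where the adjusted p was under 0.05. The globins Hbb-y and Hba-a1 and Hsd3b6 span the widest gaps upward and Col15a1 the widest downward, while Pecam1, Cdh5, Cldn5, Slc2a1 and Csf1r have open points.

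Col15a1, which encodes the chain of collagen XV, a component of the outer basement membrane zone, showed the largest fall among called genes with a mean of at least 100. It lies at chr4:47208161-47313167 on the plus strand (GENCODE M21, mm10) and averaged 120 in mutants against 1196 in controls, by the authors' deposited table (log2 ratio -3.32, SE 0.21, adjusted p = 5.34e-53). In pericytes at E13.5 it had 47.6 and 365 (log2 ratio -2.94, SE 0.50, adjusted p = 5.8e-06). The difference between cell types was -0.38 on the log2 scale (SE 0.54, adjusted p = 0.815). By genotype, mutants were Alk5(flox/flox) and controls Alk5(flox/+) in all cells, endothelial cells included. The part of this difference in the floxed allele itself in the fall of Col15a1 was not tested. No other of the 29 basement membrane genes fell apart from Nid2, a nidogen (5329 to 3813, log2 ratio -0.48), and their median was -0.17. With ratios re-centred on transcript length, as described below, Col15a1 remained called and Nid2 did not. Col15a1 was also the 1 call among 29 targets of TGF-beta and SMAD2/3, whose median was -0.11.

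Further genes fell by varied amounts. With ratios re-centred on transcript length, as described below, 36 of the 397 lower calls remained, Edil3 among them. Edil3, a secreted integrin-binding protein made by endothelial and mesenchymal cells, fell from 751 to 222 (log2 ratio -1.76, SE 0.39, adjusted p = 0.000472). Igsf9b, an immunoglobulin-type adhesion protein, fell from 164 to 43.9, the arginine transporter Slc7a2 from 65.4 to 17.5, and the latrophilin Adgrl3 from 169 to 78.8. Heyl, a Notch target abundant in mural cells, fell from 51.3 to 14.2 (log2 ratio -1.85, SE 0.52). Smaller falls with tight errors were those of Ccser2 (2882 to 1834, log2 ratio -0.65, SE 0.09), Mpdz, a scaffold of tight junctions (861 to 470), Sestd1 (914 to 623) and Cbx5, a heterochromatin protein (6073 to 4315). Il6st, the signal-transducing chain of the IL-6 receptor family, fell from 2915 to 1895, and Kitl, the ligand of KIT, from 7042 to 4739.

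Mural and mesenchymal RNA was measured beside these genes. Of 17 tested markers of pericytes and smooth muscle none was called by the authors' DESeq2 values and 2 had an unadjusted p under 0.05, with a median of -0.10 and a summed level of 4278 in mutants and 4691 in controls. Pdgfrb had means of 181 and 207, Rgs5 274 and 486, and Cspg4 37.6 and 238 (log2 ratio -2.66, SE 1.15, adjusted p = 0.151). Col1a1 of fibroblasts had 1358 and 1101, and 1 of 17 fibroblast and meningeal markers was called, in the higher direction. Their part in the falls of Edil3, Slc7a2 and Heyl was not tested.

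Cartilage transcripts stood at higher mean levels in the control cells, a pattern noticed in the values and not called. The collagen II gene Col2a1 had a mean of 481 in mutants and 4152 in controls (log2 ratio -3.11, SE 1.34, adjusted p = 0.147). Acan, the core protein of aggrecan, had 67.2 and 994, Matn1, a cartilage matrilin, 108 and 1319, and Cnmd, chondromodulin, 408 and 3576. Sox9, the transcription factor of cartilage, had 1200 and 4064. All 20 tested members of a list of cartilage genes had negative ratios, with a median of -2.57. None passed the authors' DESeq2 test, 13 had an unadjusted p under 0.05, and the summed level was 7127 in mutants and 33435 in controls. The small proteoglycan Bgn (4071 to 2475) and Col14a1 (71.9 to 32.4), the 2 calls among 33 genes of interstitial matrix, fell beside it. With ratios re-centred on transcript length 1 of these 2 calls remained. The part of cartilage RNA in these falls was not tested. The bone gene Ibsp went the other way, with 718 and 37.5 and an adjusted p of 0.106.

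Of 30 tested transporters and regulators of the blood-brain barrier 7 fell, none rose and 23 were not called, 2 had positive ratios, and the median was -0.31. Of all tested genes 397 of 18132 were lower (2.19%). The amino acid transporters Slc1a4 (5649 to 4294), Slc7a1 (6197 to 4326) and Slc7a5 (6078 to 4772), the zinc transporter Slc39a10 (8919 to 6476) and the drug exporter Abcc4 (620 to 422) were among them. Slc2a1, the glucose transporter of the barrier, had means of 33465 and 41197 (log2 ratio -0.30, SE 0.14, adjusted p = 0.180), and Mfsd2a, its lipid transporter, 880 and 969. Junction genes followed, with 3 of 23 lower, Afdn (2948 to 1939), Tjp1 (5523 to 3832) and Pkp4 (902 to 676), and a median of -0.28. Of 23 Wnt and beta-catenin genes 2 fell, Fzd4, the receptor for Norrin (2952 to 2022), and Tnfrsf19 (1670 to 1102). The barrier, junction and Wnt lists had median transcript lengths of 3451.5, 3733 and 4004 bases. Among all genes of 2408 to 3862 bases 74 of 4470 were lower, and among longer ones 285 of 4471. With ratios re-centred on transcript length, as described below, none of these barrier, junction and Wnt genes was called.

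Among signalling families of vessels single genes were called, against 7.30% of all tested genes in either direction. Of 26 ligands, receptors and partners of TGF-beta 1 fell, the BMP receptor Bmpr2 (3455 to 2824). The TGF-beta receptors Tgfbr2 (3324 and 4020), Acvrl1 (3151 and 3857) and Eng (9078 and 11442) were not called, and none of 18 BMP and SMAD1/5 targets was by DESeq2, 3 having an unadjusted p under 0.05. Id3, a target of BMP signals, had means of 10276 and 8992. Of 16 genes of the VEGF and angiopoietin systems 1 was called, Kdr, while the angiopoietin receptor Tek just missed the threshold (6601 and 9282, adjusted p = 0.0525). Of 27 guidance genes 2 fell, Sema6a (3172 to 2323) and Slit2 (296 to 167), and of 26 genes of nitric oxide and vessel tone 1 fell, the endothelin Edn3 (296 to 159). Tip cell genes had 2 higher and 1 lower of 21, the higher being the chemokine receptor Cxcr4 (157 to 249) and Plaur, the urokinase receptor (812 to 1110). None of 12 vein genes, 19 genes of PDGF and pericyte recruitment and 19 neural markers was called by DESeq2, with 2, 2 and 3 at an unadjusted p under 0.05. Of 51 cell cycle genes 1 was called. With ratios re-centred on transcript length none of the calls in this paragraph remained.

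Some imprinted genes, a list chosen after its values were seen, were lower. Of 27 tested 4 fell and none rose, beside 2.19% of all tested genes lower, and the median was -0.41. Peg10 fell from 7402 to 3821 (log2 ratio -0.95, SE 0.19, adjusted p = 5.56e-05), Plagl1, a zinc finger factor, from 7681 to 4519, Grb10, an adaptor that dampens insulin and IGF signals, from 33311 to 21323, and the noncoding Peg13 from 1946 to 1372. With ratios re-centred on transcript length 1 of the 4 calls remained, Peg10. The growth factor Igf2 had 22982 and 25020 and H19 had 10128 and 10704, neither called. X-linked Eif2s3x fell from 2827 to 2061, the 1 call among 4 tested sex-linked genes. None of the 4 had a positive ratio, and their median was -0.34, beside -0.37 in E13.5 pericytes, where none was called. Re-centred on transcript length the endothelial median was -0.13 and none was called. The sources used here do not give the sex of the embryos, and its part in these values was not tested.

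Lists of genes with short transcripts held many of the higher calls. Of 82 tested cytosolic ribosomal protein genes 60 rose and none fell, with a median of 0.51. Rplp1 rose from 2824 to 5318 (log2 ratio 0.91, SE 0.11, adjusted p = 1.5e-12), Rpl41 from 6790 to 14993 and Rpl39 from 448 to 998, whereas the longer Rpl4 had 18147 and 16334 and was not called. Of 74 nuclear genes of the respiratory chain 28 rose, among them Ndufa6 (1222 to 2093) and Cox8a (2391 to 3962), with a median of 0.44, while Atp5b (18796 and 17813) did not pass the test. Within the mitochondrial genome the short mt-Nd3 rose from 250 to 500 and mt-Co1 had 68006 and 65490. Short genes outside these complexes rose too, such as Smim4 (110 to 290) and Atp6v1f, a subunit of the vacuolar proton pump (1741 to 2851).

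Replication-dependent histones, whose messages end in a stem-loop instead of a poly(A) tail, had 40 of 56 members higher, none lower and a median of 1.08. Hist1h4n rose from 80.0 to 275, Hist1h4m from 81.2 to 278 and H4c8 from 71.2 to 262, and reads of these near-identical H4 genes may be shared. H2ac19 rose from 223 to 623, and H2bc21, which also makes a polyadenylated message, had 107 and 123. The median of the cell cycle genes was -0.10. RNAs of RNA polymerase III, which lack poly(A) tails, were higher in 3 of the 4 tested of a list chosen after its values were seen: Rn7sk had 617 and 81.4, and Rpph1 288 and 80.0. Among 2633 processed pseudogenes, many of them copies of short messages, 346 were higher and 8 lower.

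The ratios ran with transcript length over the whole table. In the shortest 25% of genes the median log2 ratio was 0.24, with 737 genes higher and 8 lower, and in the longest 25% it was -0.19, with 19 higher and 285 lower. Over 10 groups of equal size by length it went from 0.35 at a median length of 459 bases to -0.22 at 7195 bases, a span of 0.57. The same span was -0.02 in pericytes at E13.5 and 0.26 in pericytes at E11.5. Among protein-coding genes without the lists of short genes the medians of 4 groups from short to long were 0.16, -0.02, -0.11 and -0.20. In 4 groups by level they ranged from 0.02 to -0.04.

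**Figure D3:**
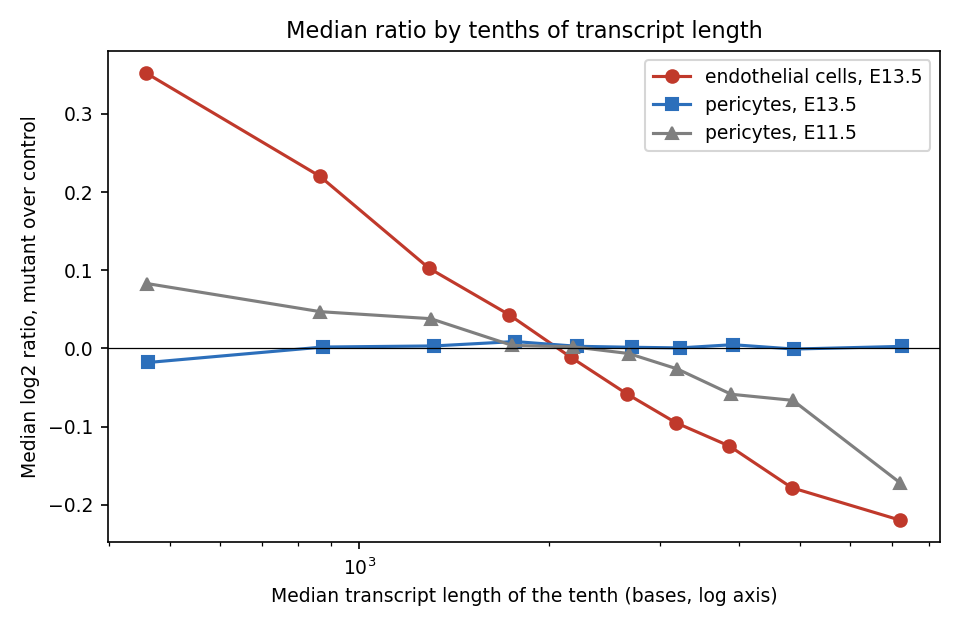
Median log2 ratio of mutant over control (y) for 10 groups of equal size by transcript length (x, bases, log axis) in the 3 comparisons, with 1 point per group of genes. Endothelial cells fall from 0.35 to -0.22, E13.5 pericytes stay within 0.02 of 0, and E11.5 pericytes fall from 0.08 to -0.17.

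When each ratio was re-centred on the running median of genes of like length, 330 of 17882 genes were called (1.85%), 232 higher and 98 lower. Of these, 247 were among the 1323 calls and 83 were not. The 247 hold 211 of the 926 higher calls and 36 of the 397 lower ones. Col15a1 kept a log2 ratio of -3.15, Edil3 -1.57, Hmox1 2.09 and Hbb-y 4.79, all called. By gene, 16 of 16 erythroid, 5 of 6 platelet, 1 of 4 myeloid and 8 of 11 NRF2 calls remained after this step. So did 12 of 60 ribosomal, 4 of 28 respiratory chain, 17 of 40 histone and 0 of 3 polymerase III calls. The 1 myeloid call that remained was Pf4, the platelet chemokine, which is counted in the platelet list as well. The length trend includes whatever true changes short and long genes have, so the re-centred values are a second view and not a correction known to be right. What moves the ratios with length was not tested.

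Endothelial cells and pericytes at E13.5 were then compared by the difference of their log2 ratios, which come from separate libraries and separately normalized tables. Of 16920 genes tested in both, 666 differed (3.94%), 499 with a higher ratio in endothelial cells and 167 with a lower ratio. In pericytes 78 of 20084 genes were called (0.388%). Genes called in both cell types numbered 3, each in the same direction in both: Col15a1, Abcc4 (-0.56 and -0.64) and Rasgrp2, an activator of RAP1 (0.56 and 0.65), which is 0.227% of the endothelial and 3.85% of the pericyte calls. Re-centred on transcript length, Abcc4 and Rasgrp2 were no longer called in endothelial cells (adjusted p = 0.403 and 0.0761).

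The genes with the clearest differences belonged to groups described above. Hmox1 had a log2 ratio of 2.15 in endothelial cells and 0.16 in pericytes (difference 1.99, adjusted p = 2.6e-06). Rplp1 had 0.91 and -0.05, mt-Nd3 1.00 and -0.06, and Rps15a 0.76 and -0.16. On the lower side Mpdz had -0.87 and 0.12, Ccser2 -0.65 and -0.08, Slc7a2 -1.90 and 0.10, and Il6st -0.62 and 0.28. Sned1, a secreted matrix protein, was not called in endothelial cells (-0.79, adjusted p = 0.137) and rose in pericytes (1.09), a difference of -1.88. Of 82 ribosomal protein genes 51 and of 53 histones 25 differed, all with the higher ratio in endothelial cells. With both tables re-centred on length 81 genes differed, 62 of them among the 666.

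**Figure D4:**
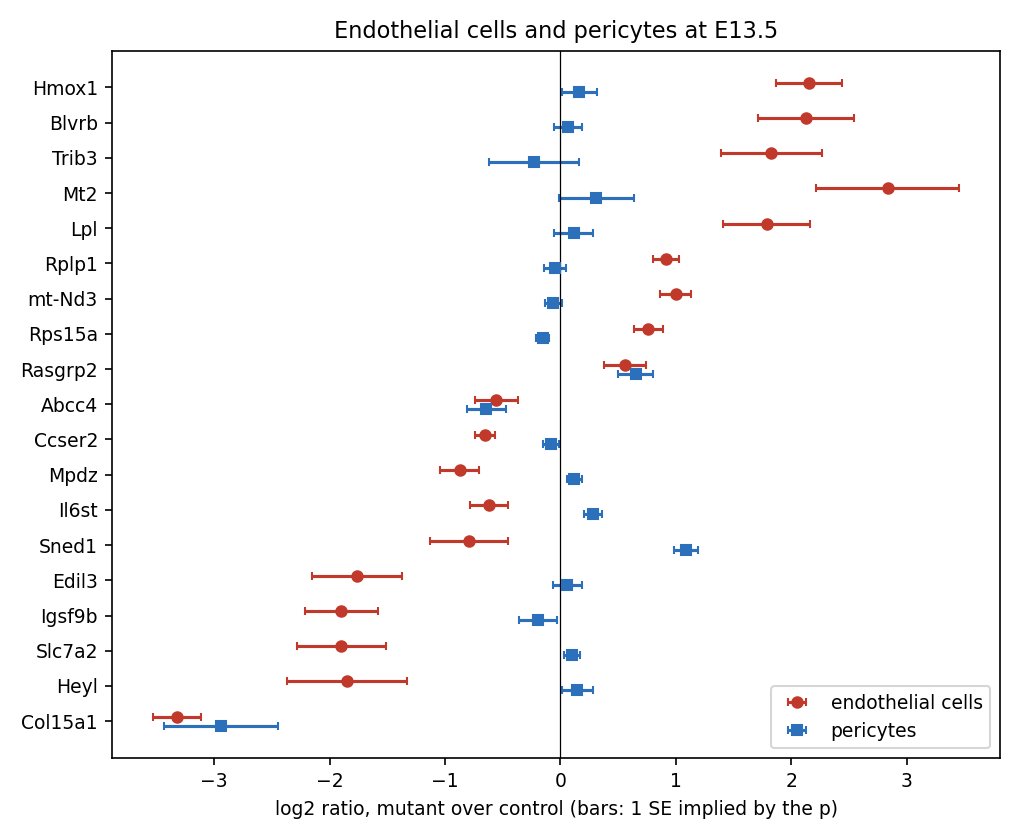
Log2 ratio of mutant over control (x) with bars of 1 SE for 19 named genes (y) in endothelial cells (red circles) and pericytes (blue squares) at E13.5. Col15a1, Abcc4 and Rasgrp2 have both points on the same side, and Hmox1, Edil3 and Slc7a2 have pericyte points near 0.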

How the data were processed

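Messenger RNA libraries of sorted cells were sequenced, per the labels' protocols. Bowtie2, DESeq2, Partek and the build mm10 are named in the submitters' processing notes; how reads were counted and modelled is not stated there. Per the file headers, the deposited tables hold least-squares means, their ratio and signed fold change, a p-value and its step-up FDR, the means being read as a signal of mean normalized counts; depth is unknown. The authors' FDR is printed as the adjusted p. The planned tests on values per library could not be run, and the authors' values were used instead. The SE is the log2 ratio divided by the normal deviate of the p, assuming a Wald test. Differences between cell types used the summed squared SE and Benjamini-Hochberg adjustment. Lengths come from GENCODE M21 (98.6% of tested genes), with a running median over 501 genes.

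Named genes were Tgfbr1, Pdgfrb and endothelial and receptor genes, the 10 largest changes (mean of at least 100) and 10 smallest p each way, up to 4 called and 2 uncalled per list, and 6 per direction for the difference. Not all are printed. Outside it and chosen after their values were seen were members of the 5 lists so described, cell type markers, Kitl, Lmx1a, Rasgrp2, Abcc4, Flvcr2, Steap3, Mfsd2a, Slc7a5 and Ibsp. Members and lists were chosen with earlier results of these data known. Alternatives changed the level filter, threshold, centring, scaling and spread. Steps were tested on simulated data with independent normal errors of the implied SE. The observed test statistics had a median size of 0.997, larger than such errors give for unchanged genes. The simulation thus does not check the calls under the observed spread. Software was matplotlib 3.10.9, scipy 1.17.1, pandas 2.3.3, numpy 2.4.6 and Python 3.11.15.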

Additional observations from a re-analysis of the deposited data

Results flagged for a closer look

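Among the genes named in the report, 49 had mutant-to-control ratios that differed between endothelial cells and pericytes at E13.5 by a test of the difference itself. Values are the endothelial minus the pericyte log2 ratio. No cause was tested.

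Higher in endothelial cells were the haem, iron and stress genes, with differences for Hmox1 1.99, Blvrb 2.06, Ftl1 1.11, Fth1 1.4, Slc48a1 1.11, Gpx4 0.86, Mt2 2.53, Trib3 2.06 and Ddit3 1.31. Blood cell and macrophage genes gave Pf4 1.79, Spp1 2.21, Lpl 1.67, Ctsd 0.66 and Ifitm1 0.98. Genes with short transcripts gave Rplp1 0.96, Rpl39 1.2, Rpl41 1.16, Rps15a 0.92, Ndufa6 0.84, Cox8a 0.73, mt-Nd3 1.06, Smim4 1.53 and Atp6v1f 0.68. Histones gave Hist1h4n 2.17, Hist1h4m 1.77, H4c8 1.71 and H2ac19 1.24. The transcription factor Lmx1a, with means of 179 in mutant and 20.6 in control endothelial cells, gave 2.99.

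Lower in endothelial cells were adhesion and matrix genes, with Edil3 -1.82, Igsf9b -1.7, Sned1 -1.88, Bgn -0.66, Nid2 -0.6, Adgrl3 -1.04 and Slit2 -0.85. Junction and barrier genes gave Mpdz -0.99, Afdn -0.56, Tjp1 -0.55, Slc39a10 -0.46, Fzd4 -0.73 and Tnfrsf19 -0.68. The remaining genes gave Ccser2 -0.57, Slc7a2 -2.0, Il6st -0.9, Heyl -2.0, Edn3 -1.04, Sestd1 -0.54, Cbx5 -0.49 and Zfp606 -0.7.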

How the results depend on the processing

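Of 1323 genes called, the count was 49 with test statistics rescaled to a standard normal, 330 with ratios re-centred on transcript length, 63 with both, 655 at an FDR of 0.01 and 247 with a log2 ratio of at least 1 in size. The level filter, the set adjusted over, centring on the median, scaling without erythroid and mitochondrial genes, leaving out blood markers or processed pseudogenes and an FDR of 0.1 gave 947 to 1950. The 666 differences between cell types became 81 with both tables re-centred on length, an alternative chosen after seeing the data, as were the combined one and the one without pseudogenes. Of 106 called genes examined singly, 45 were no longer called after re-centring on length and 89 after rescaling; none of the 106 reversed, and of the 162 genes examined 5 that were not called crossed 0 in some setting, Tgfbr1 (-0.11 to 0.10), Cldn5 (0.07 to -0.01), mt-Co1, Atp5a1 and Col1a2. List medians that changed sign on re-centring were those of tip cell genes (-0.10 to 0.05), integrins (-0.18 to 0.02) and mitochondrially encoded genes (0.11 to -0.10). The causes were not tested. Leaving out single samples was not run, for want of values per library. No paired analysis was possible because the tables give group means only.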
